A study of Mus musculus with 80 samples.

Results

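Kainate receptor subunits and a delta receptor subunit were examined in single medium spiny neurons (MSN) of the mouse dorsomedial striatum. The members were taken by gene family, as named rows of the table: *Grik1*, *Grik2*, *Grik3*, *Grik4*, *Grik5* and *Grid1*, 6 of the 25160 genes listed in the expression table. All 6 were listed. In brief, *Grik2* and *Grik5* were found at the highest levels in both MSN subtypes. *Grik3* exceeded 1 TPM in 15 of 38 D2 MSN but in 1 of 40 D1 MSN. *Grik1* was listed at 0 in all 78 MSN.

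The study sorted individual cells of adult double-transgenic mice, heterozygous for 2 reporters, Drd1a-TdTomato and Drd2-EGFP, by fluorescence-activated cell sorting (FACS) and sequenced the cDNA of each cell. Both reporters are bacterial artificial chromosome transgenes, so all cells came from animals carrying both, and a cell was assigned by the reporter that it showed. The 40 cells labelled Drd1a-TdTomato are called D1 MSN here (the direct pathway), and the Drd2-EGFP cells D2 MSN (the indirect pathway). The Drd2-EGFP reporter also marks cholinergic interneurons, and the 2 Drd2-EGFP cells with more than 100 TPM of the acetylcholine synthesis gene *Chat* were kept apart, which left 38 D2 MSN.

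Kainate receptors are tetrameric glutamate-gated cation channels. The subunits encoded by *Grik1*, *Grik2* and *Grik3* (GluK1 to GluK3) form channels by themselves, whereas those encoded by *Grik4* and *Grik5* (GluK4 and GluK5) bind kainate with high affinity and form functional channels only together with one of the former. In the striatum these receptors act at glutamatergic inputs and also modulate transmitter release. *Grid1* encodes GluD1, a delta family subunit that is related to the ionotropic glutamate receptors by sequence, does not open as a channel when glutamate binds and joins synapses through cerebellin proteins.

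The values were TPM, a unit that by definition corrects for transcript length. Levels of different genes are set beside each other with a limit. The study describes a 3′ bias of such libraries, which can lower genes whose annotated 3′ end is incomplete. The listed genes of a cell summed to between 506588 and 958040 TPM (median 852943). A gene was called found in a cell above 1 TPM. The plates FACS051_5 (18 D1 and 16 D2 MSN) and FACS086_4 (21 D1 and 19 D2 MSN) gave nearly all cells, and FACS086_9 gave 1 D1 and 3 D2 MSN. The study used several animals and the labels name none, so each group of cells was treated as 1 sample and no test between the subtypes was made. Folds were set beside the folds within the 2 large plates and beside the same fold over all genes. Intervals of shares are exact 95% binomial (Clopper-Pearson) intervals and cover counting error over cells only. Whether they overlap is a description of these cells and does not test the subtypes.

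The number of genes above 1 TPM ran from 648 to 8657 in D1 MSN (median 5722) and from 1215 to 7942 in D2 MSN (median 4927.5). The reporter labels were checked against 5 D1 MSN markers, whose summed level was above 10 TPM in 38 of 40 D1 and 4 of 38 D2 MSN. Among them *Tac1* was above 1 TPM in 39 of 40 D1 MSN, *Drd1* in 38, *Isl1* in 24, *Pdyn* in 22 and *Chrm4* in 1. The study reports *Chrm4* as specific to D1 MSN, with most of its reads in a 3′ untranslated region that the Ensembl annotation lacks. Whether this lowered the *Chrm4* values used here was not tested. The summed level of 5 D2 MSN markers was above 10 TPM in 38 of 38 D2 and 27 of 40 D1 MSN. Its medians were 10848 TPM in D2 and 11.9 TPM in D1 MSN. *Penk* had by far the highest mean of these 5 in D2 MSN, 12438 TPM, and was above 10 TPM in 24 D1 MSN. Above 1 TPM in D2 MSN were *Penk* in 38 cells, *Adora2a* in 31, *Gpr6* in 30, *Drd2* in 26 and *Sp9* in 16. The D1 MSN in well C06 of FACS051_5 had 3713 TPM of D2 MSN markers and the D2 MSN in well A12 of FACS086_9 had 1218 TPM of D1 MSN markers, the highest such sums. Without both cells the *Grik3* fold given below was -2.81. The library labelled Drd1a-TdTomato in well D04 of FACS051_5 stood apart, with the highest sums of astrocyte (1856 TPM), oligodendrocyte (260.0 TPM) and oligodendrocyte precursor markers (99.0 TPM) of all MSN. It held 0.135 TPM of *Grik2*, 0.805 TPM of *Grik5* and 0 TPM of the other 4 members, and leaving it out gave a *Grik3* fold of -2.78.

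The members lie on 6 chromosomes (GRCm38, GENCODE M21). *Grik1* (ENSMUSG00000022935.16) spans chr16:87895900-88290265 on the minus strand, *Grik2* (ENSMUSG00000056073.16) chr10:49094833-49788766 on the minus strand and *Grik3* (ENSMUSG00000001985.9) chr4:125490700-125714173 on the plus strand. *Grik4* (ENSMUSG00000032017.14) spans chr9:42518135-42944493 on the minus strand, *Grik5* (ENSMUSG00000003378.9) chr7:25009849-25072346 on the minus strand and *Grid1* (ENSMUSG00000041078.7) chr14:34820108-35583379 on the plus strand. Most are long genes with short exons in sum: *Grid1* covers 763272 bases with 5962 bases of merged exon, and *Grik5*, the shortest, 62498 bases with 5168. A *Grik4* exon shares 59 bases with the small RNA gene *Gm24420* and a *Grid1* exon 91 bases with *Gm27617*, both on the same strand, so that reads there could belong to either gene.

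Promoters (250 bases before to 50 bases after the start, RefSeq, GRCm38.p6) were matched for *Grik2*, *Grik3*, *Grik4* and *Grik5*, and not for *Grik1* and *Grid1*. They were rich in G and C, at 64.7% in *Grik2*, 82% in *Grik3*, 70% in *Grik4* and 72% in *Grik5*, against a median of 52.7% over 32851 promoters. The GC box letters GGGCGG, searched on both strands, stood 7 times in *Grik3*, 2 times each in *Grik4* and *Grik5* and 0 times in *Grik2*, and 35.7% of all promoters held at least 1. The letters TATAAA, on both strands, were in none of these 4 windows and in 13.6% of all promoters. A link between these letters and the levels was not tested. For *Grik3*, *Grik4* and *Grik5*, which held GGGCGG, 30 bases are shown, each the first stretch before the start with the most copies. GGGCGG is in capitals (5′ to 3′ on the strand of the gene).
*Grik3*, chr4:125490594-125490623, plus strand: agccttcgctcgcGGGCGGcccgtGGGCGG
*Grik4*, chr9:42944558-42944587, minus strand: gccgcagttccctcactgcccgccGGGCGG
*Grik5*, chr7:25072549-25072578, minus strand: gctctggggggaggggggggaaggGGGCGG
These matches describe letters in the reference, and binding was not measured here.

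*Grik2*, the channel-forming GluK2 subunit, was the most widely found member. In the 40 D1 MSN it ranged from 0 to 255 TPM with a median of 45.2 TPM and a mean of 63.9 ± 69.5 TPM (SD over cells). In the 38 D2 MSN it ranged from 0 to 338 TPM with a median of 12.8 TPM and a mean of 39.8 ± 67.9 TPM. The 338 TPM were those of 1 cell, and the next D2 MSN held 147 TPM, against 207 TPM in the next D1 MSN. The levels overlapped between the subtypes, with the lower median in D2 MSN.

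The D1 MSN with *Grik2* above 1 TPM numbered 31 of 40 (77.5%, interval 61.5% to 89.2%). The D2 MSN numbered 22 of 38 (57.9%, interval 40.8% to 73.7%), and the intervals overlapped. It was listed at 0 in 6 D1 and 13 D2 MSN. Where it was found it was abundant: 27 D1 and 20 D2 MSN held more than 10 TPM. The log2 fold of D1 over D2 MSN, taken between mean TPM + 1, was 0.67, and it was 0.52 on FACS051_5 and 0.61 on FACS086_4, so both plates gave a small difference in the same direction. Cells with *Grik2* above 1 TPM held more genes than cells without it, with medians of 6154 against 2971 genes in D1 MSN and 6012 against 3788 in D2 MSN, and the part of this difference in the *Grik2* shares was not tested.

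*Grik3*, the channel-forming GluK3 subunit, was the member with the largest difference between the subtypes. In D1 MSN it ranged from 0 to 3.10 TPM with a median of 0.110 TPM and a mean of 0.231 ± 0.502 TPM (SD over 40 cells). The cell with 3.10 TPM, in well D01 of FACS051_5, was the only D1 MSN above 1 TPM, and the next held 0.761 TPM. In D2 MSN *Grik3* ranged from 0 to 40.3 TPM with a median of 0.493 TPM and a mean of 7.49 ± 11.9 TPM (SD over 38 cells).

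The measured level varied widely among D2 MSN. In 15 of 38 cells (39.5%, interval 24.0% to 56.6%) *Grik3* was above 1 TPM, and in 11 of these above 10 TPM, whereas 11 D2 MSN were listed at 0. *Drd2*, the gene whose reporter was used for sorting, was itself listed at 0 in 11 D2 MSN, so a 0 in 1 cell does not show that a gene is off. The corresponding share of D1 MSN was 1 of 40 (2.5%, interval 0.0633% to 13.2%). These intervals did not overlap over all plates, but on FACS086_4 they did (0% to 16.1% of D1 and 9.15% to 51.2% of D2 MSN). How many of all genes have intervals that lie apart was not counted. *Grik3* was above 0 TPM in 25 D1 and 27 D2 MSN, and of these 1 D1 and 15 D2 MSN were above 1 TPM.

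The log2 fold of *Grik3* was -2.79, higher in D2 MSN, and it was -3.29 on FACS051_5 and -1.82 on FACS086_4. On FACS051_5, 9 of 16 D2 MSN were above 1 TPM (mean 11.4 TPM) against 1 of 18 D1 MSN (mean 0.269 TPM). On FACS086_4 these were 5 of 19 D2 MSN (mean 3.27 TPM) against 0 of 21 D1 MSN (mean 0.209 TPM). The difference was therefore in the same direction on both plates and larger on the former.

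Of the 5 members that could be placed in the comparison over all genes, 1, *Grik3*, was beyond a log2 fold of 1 in size. With 10 TPM added in place of 1 its fold was -0.77 and no member was beyond 1, and as a difference of mean log2(TPM + 1) *Grik3* (-1.46) and *Grik2* (1.28) were. The count over members rests on 14631 genes that averaged 1 TPM or more over all MSN and were not listed at 0 throughout either group, of which 31.3% were beyond that fold in either direction and 12.9% in the direction of D2 MSN. With means of 0.231 TPM in D1 and 7.49 TPM in D2 MSN, *Grik3* passed this filter only through D2 MSN. *Grik3* was also below -1 on both large plates, as were 4.19% of these genes. No member was above 1 in the direction of D1 MSN, against 18.4% of all genes. No member was above 1 on both large plates either, against 5.53% of all genes. The median log2 fold of the 5 members was 0.39, and that of all genes 0.08. *Grik2*, *Grik4*, *Grik5* and *Grid1* stayed within a fold of 1 in size, as did most genes.

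**Figure D1:**
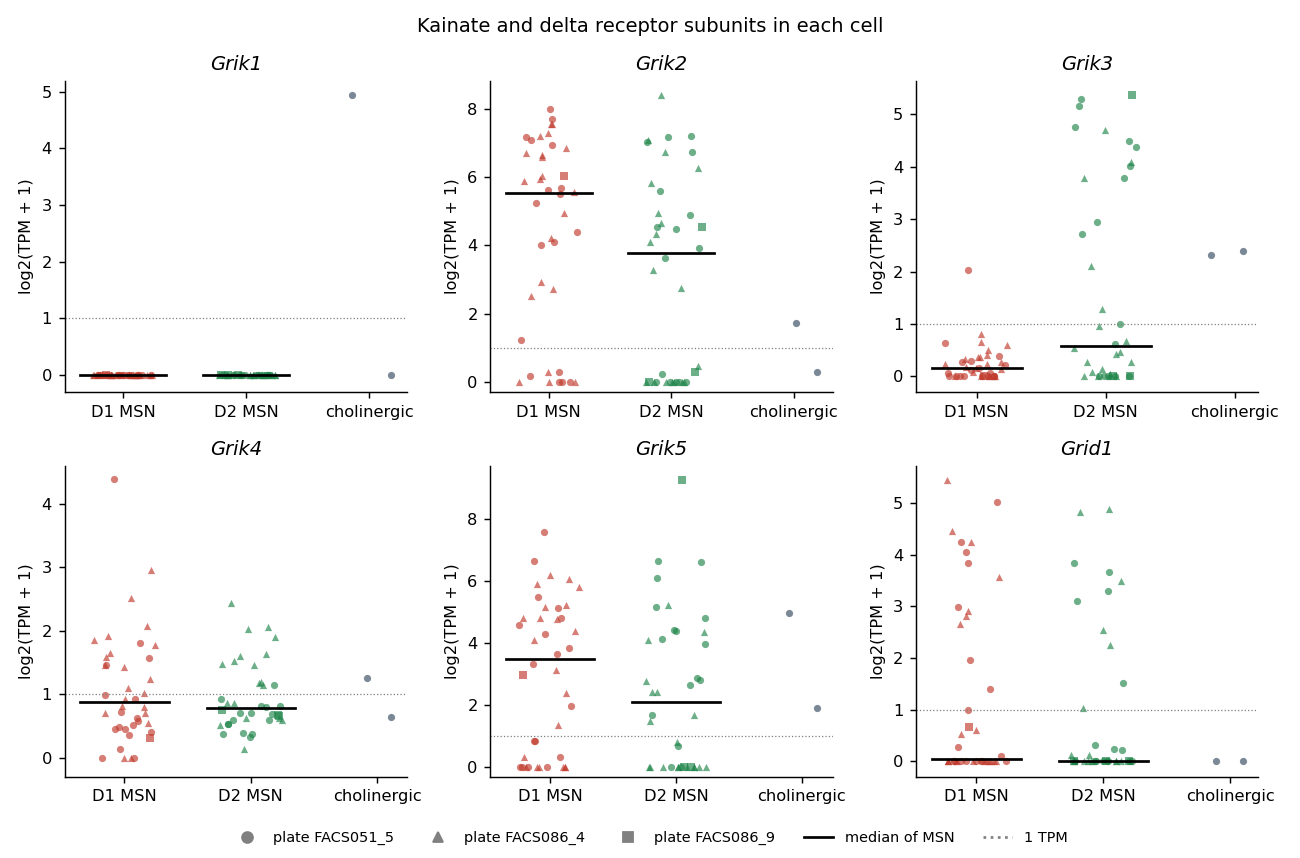
Level of each member in every cell as log2(TPM + 1), with 40 D1 MSN (red), 38 D2 MSN (green) and 2 cholinergic interneurons (grey); point shapes give the plate, black lines the median of MSN and the dotted line 1 TPM. *Grik3* lies below 1 TPM in all D1 MSN but 1 and reaches 40.3 TPM in D2 MSN, whereas the levels of *Grik2* and *Grik5* overlap between both, with single highest D2 MSN at 338 and 615 TPM.

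Several measures were set beside the *Grik3* result. Markers of oligodendrocyte precursors, of which 2 of 4 were listed, summed to at most 0.763 TPM in every D2 MSN, and markers of other striatal interneurons (4 of 7 listed) to at most 0.984 TPM. The 5 cholinergic markers summed to at most 10.8 TPM in D2 MSN, with a median of 0. The 2 cholinergic interneurons, which were not counted among D2 MSN, held 4.0 and 4.24 TPM of *Grik3*.

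Astrocyte markers (4 of 5 listed) summed to at most 45.5 TPM in D2 MSN, and the highest sum was in the cell in well A06 of FACS086_9, which also held the highest *Grik3* level. Oligodendrocyte markers (3 of 5 listed) summed to more than 10 TPM in 14 D1 and 15 D2 MSN, with medians of 2.86 and 2.96 TPM. Among D2 MSN the highest sum, 83.2 TPM, was in well D02 of FACS051_5, and the highest level of the myelin gene *Mbp*, 77.8 TPM, in well B07 of FACS086_4, and these cells held the highest *Grik3* of their plates, 38.4 and 25.2 TPM. Without the MSN above 10 TPM of these markers, *Grik3* was found in 0 of 26 D1 and 7 of 23 D2 MSN (30.4%), and its fold was -2.80. Microglial markers (2 of 5 listed) reached 10.8 TPM in D1 and 20.8 TPM in D2 MSN, and cortical excitatory neuron markers (4 of 5 listed) 147 and 17.0 TPM. Endothelial markers (2 of 4 listed) summed to 10.8 to 152 TPM in D1 and 13.8 to 277 TPM in D2 MSN. The 2 differed: *Pecam1* was above 10 TPM in all 78 MSN, whereas *Flt1* was above 1 TPM in 6 of 78. Without the highest cell of each group the *Grik3* fold was -2.72, and without plate FACS086_9 it was -2.69. D2 MSN with *Grik3* above 1 TPM held a median of 6039 genes and those without it 4233, and the part of gene number in this split of D2 MSN was not tested. Median genes per cell were 5109 in D1 and 5923 in D2 MSN on FACS051_5, and 5730 and 4617 on FACS086_4.

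*Grik5*, the high-affinity GluK5 subunit, was the high-affinity subunit found above 1 TPM in more cells, but its order between the subtypes was not stable. In D1 MSN it ranged from 0 to 190.0 TPM with a median of 10.4 TPM and a mean of 23.4 ± 36 TPM (SD over 40 cells). In D2 MSN it ranged from 0 to 615 TPM with a median of 3.28 TPM and a mean of 29.6 ± 100.5 TPM (SD over 38 cells). The cell with 615 TPM, in well A04 of FACS086_9, gave 54.6% of the D2 MSN sum, and the mean of the other D2 MSN was 13.8 TPM.

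The share of cells above 1 TPM of *Grik5* was 65.0% of D1 MSN (26 cells, interval 48.3% to 79.4%) and 57.9% of D2 MSN (22 cells, interval 40.8% to 73.7%). The log2 fold was -0.33 over all cells 0.44 without the highest cell of each group and 0.67 without plate FACS086_9, so its direction turned when 1 cell per group was left out. On FACS051_5 the means were 26.4 TPM (D1) and 26.2 TPM (D2), giving a log2 fold of 0.01. On FACS086_4 the means were 21.7 and 4.86 TPM, with 14 of 21 D1 and 8 of 19 D2 MSN above 1 TPM, a log2 fold of 1.95. The plates therefore differed from each other by more than the subtypes did over all cells. Genes per cell moved along with this split: the D2 MSN of FACS086_4 held a median of 4617 genes and those of FACS051_5 5923, and the part of gene number was not tested.

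*Grik4*, the other high-affinity subunit (GluK4), was present in most cells and low in nearly all. In D1 MSN it ranged from 0 to 19.9 TPM with a median of 0.831 TPM and a mean of 1.75 ± 3.24 TPM (SD over 40 cells). In D2 MSN it ranged from 0.0927 to 4.43 TPM with a median of 0.712 TPM and a mean of 1.09 ± 0.960 TPM (SD over 38 cells). It was listed at 0 in 4 D1 MSN and in no D2 MSN, and only the cell with 19.9 TPM was above 10 TPM.

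More than 1 TPM of *Grik4* was found in 42.5% of D1 MSN (17 cells, interval 27% to 59.1%) and 34.2% of D2 MSN (13 cells, interval 19.6% to 51.4%), and the log2 fold was 0.39. Its level followed the plate more than the subtype. On FACS051_5, 4 of 18 D1 and 1 of 16 D2 MSN were above 1 TPM, with medians of 0.459 and 0.554 TPM. On FACS086_4 these were 13 of 21 and 12 of 19, with medians of 1.36 and 1.29 TPM, so that within each plate both subtypes had nearly the same median.

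The pattern of *Grik4*, found widely at a low level, was shared by few genes. It was above 0 in 76 of 80 cells. In all, 630 genes were above 0 in 76 or more cells, and 22 of them, *Grik4* included, had a median below 1 TPM. These 22 genes included the scaffold gene *Shank1* and the synaptic adhesion gene *Slitrk2*, but also *Cep97*, *Kdsr* and several unnamed gene models such as *Gm4034*. Whether they share a function was not tested. In 20 of the 22, the median was higher on FACS086_4 than on FACS051_5, whereas this held for 39.2% of the 630 widely found genes. The D1 MSN with the fewest genes of all MSN, 648, held 4.74 TPM of *Grik4* and 0 TPM of the other 5 members.

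*Grid1*, the delta family subunit GluD1, was found in a minority of cells of either subtype. In D1 MSN it ranged from 0 to 43.0 TPM with a median of 0.0322 TPM and a mean of 5.10 ± 9.63 TPM (SD over 40 cells). In D2 MSN it ranged from 0 to 28.5 TPM with a median of 0 and a mean of 3.17 ± 6.97 TPM (SD over 38 cells). More than 1 TPM was found in 14 D1 MSN (35.0%, interval 20.6% to 51.7%) and 11 D2 MSN (28.9%, interval 15.4% to 45.9%). The log2 fold was 0.55 over all cells, 0.70 within FACS051_5 and 0.33 within FACS086_4, and the intervals of the shares overlapped over most of their length.

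*Grik1*, the channel-forming GluK1 subunit, was listed at 0 in 40 of 40 D1 and 38 of 38 D2 MSN. A count of 0 cells allows a share of up to 7.5% of D1 MSN and 7.89% of D2 MSN (3 cells of each group). This limits cells with a value in the table, for counting error only, and not cells that express the gene. No fold was given, since both groups were at 0. The gene was not empty in the table: 1 cholinergic interneuron held 29.7 TPM.

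**Figure D2:**
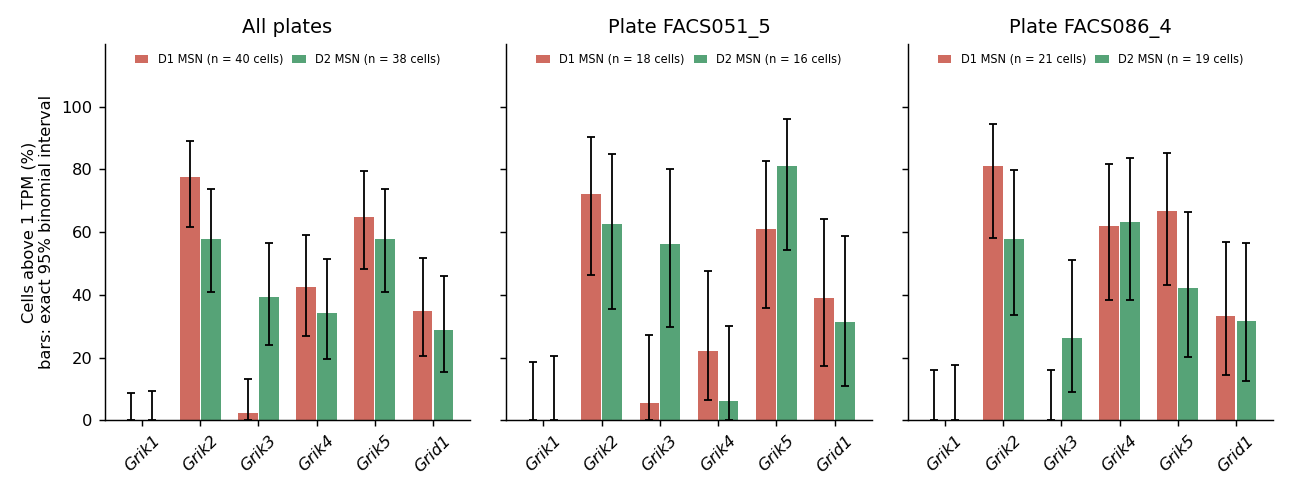
Share of cells above 1 TPM of each member (%), over all plates and within the 2 large plates, for D1 MSN (red) and D2 MSN (green); bars show exact 95% binomial intervals. The *Grik3* share is higher in D2 MSN on both plates, the *Grik4* share is higher on FACS086_4 in both subtypes, and the *Grik5* share of D2 MSN is 81.2% on one plate and 42.1% on the other.

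Ordered by mean level, D1 MSN held *Grik2*, *Grik5*, *Grid1*, *Grik4*, *Grik3* and *Grik1*, and D2 MSN *Grik2*, *Grik5*, *Grik3*, *Grid1*, *Grik4* and *Grik1*. *Grik3* thus stood after *Grid1* and *Grik4* in D1 MSN and before them in D2 MSN, and the order was otherwise the same. The difference between neighbours was smaller than the SD over cells of the higher one for all neighbours except *Grik4* and *Grik1* in D2 MSN. The 5 kainate subunits together summed to a mean of 89.3 TPM per D1 MSN (median 56.7, range 0.141 to 354 TPM) and 78.0 TPM per D2 MSN (median 39.7, range 0.128 to 616 TPM). *Grik2* made up 71.6% of this sum over D1 MSN and 51.0% over D2 MSN, and *Grik5* 26.2% and 38.0%. Without the cell with the highest kainate sum of each group, *Grik2* made up 71.5% in D1 and 64.4% in D2 MSN, and *Grik5* 26.0% and 21.8%, so that the higher *Grik5* share of D2 MSN came from the cell with 615 TPM.

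The other ionotropic glutamate receptor families were several-fold higher. The 4 AMPA receptor subunits, which carry fast excitatory transmission, summed to a mean of 494 TPM per D1 and 466 TPM per D2 MSN, and the 7 NMDA receptor subunits to 474 and 436 TPM. Of the AMPA subunits 0 of 4, and of the 3 NMDA subunits in the comparison 0 of 3, were beyond a log2 fold of 1 in size, against 31.3% of all genes, so most genes were not. *Gria2* had a log2 fold of 0.06 and *Grin2b* of -0.13.

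**Figure D3:**
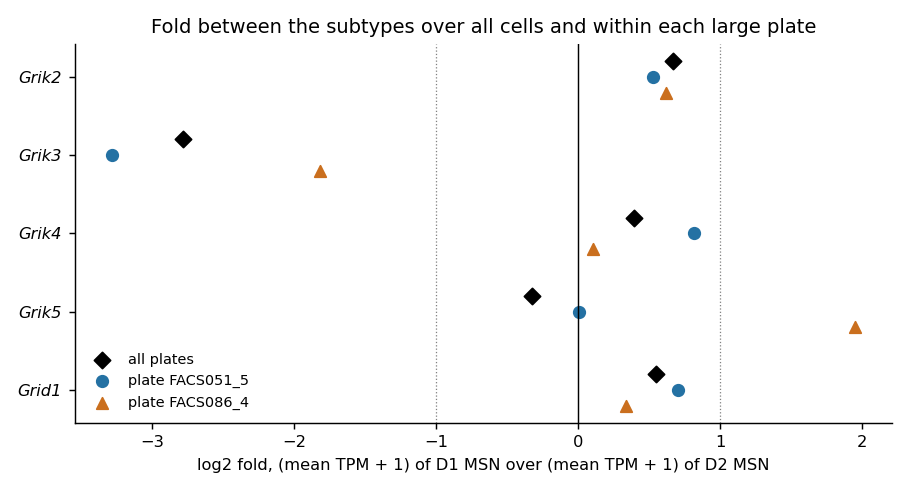
Log2 fold of mean TPM + 1, D1 over D2 MSN, for the 5 members with values, over all cells (diamonds) and within plates FACS051_5 (circles) and FACS086_4 (triangles); dotted lines mark a fold of 1 in size. *Grik3* lies below -1 in all 3, from -3.29 to -1.82, and *Grik5* spans from -0.33 to 1.95.

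The subunits were next examined within the same cell. At more than 1 TPM, D1 MSN held on average 2.23 of the 6 members and D2 MSN 2.18. None of the members was found in 3 D1 and 5 D2 MSN, and 3 or more in 19 D1 (47.5%) and 18 D2 MSN (47.4%). A channel-forming subunit together with *Grik4* or *Grik5* was found in 28 of 40 D1 and 20 of 38 D2 MSN. A channel-forming subunit without either was found in 3 and 4 cells. *Grik4* or *Grik5* without a channel-forming subunit, the combination that yields no functional kainate receptor by itself, was found in 6 D1 and 9 D2 MSN. These counts depended on the limit. Above 0 TPM the 3 combinations were found in 38, 0 and 2 D1 and 32, 0 and 6 D2 MSN. Above 10 TPM they were found in 16, 11 and 5 D1 and 9, 14 and 4 D2 MSN. *Grik4* was above 0 TPM in 74 of 78 MSN, so few cells lacked it at that limit. Cells without *Grik2* held fewer genes, as given above, so a subunit not found in a cell was not shown to be absent.

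*Grik2* and *Grik5* were the pair most often found together, in 23 D1 and 16 D2 MSN. *Grik5* was above 1 TPM in 74.2% of D1 MSN with *Grik2* and 33.3% of those without it, and in 72.7% and 37.5% of D2 MSN. *Grid1* was above 1 TPM in 41.9% of D1 MSN with *Grik2* and 11.1% without, and in 40.9% and 12.5% of D2 MSN. Of the 15 D2 MSN with *Grik3*, 13 also held *Grik2*. *Grik4* went the other way with *Grik5*, which was found in 52.9% of D1 MSN with *Grik4* and 73.9% without, and in 46.2% and 64.0% of D2 MSN.

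The number of genes per cell differed along the same splits. It was higher in cells with than without *Grik5* (medians 6172.5 against 4478.5 in D1 and 6003 against 3702.5 in D2 MSN) and *Grid1* (6566.5 against 5247.5 and 6279 against 4187), as it was for *Grik2* above. For *Grik4* the medians were 6415 against 5288 genes in D1 MSN and 4928 against 4927 in D2 MSN. How far the pairs reflect cells with more genes was not tested.

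**Figure D4:**
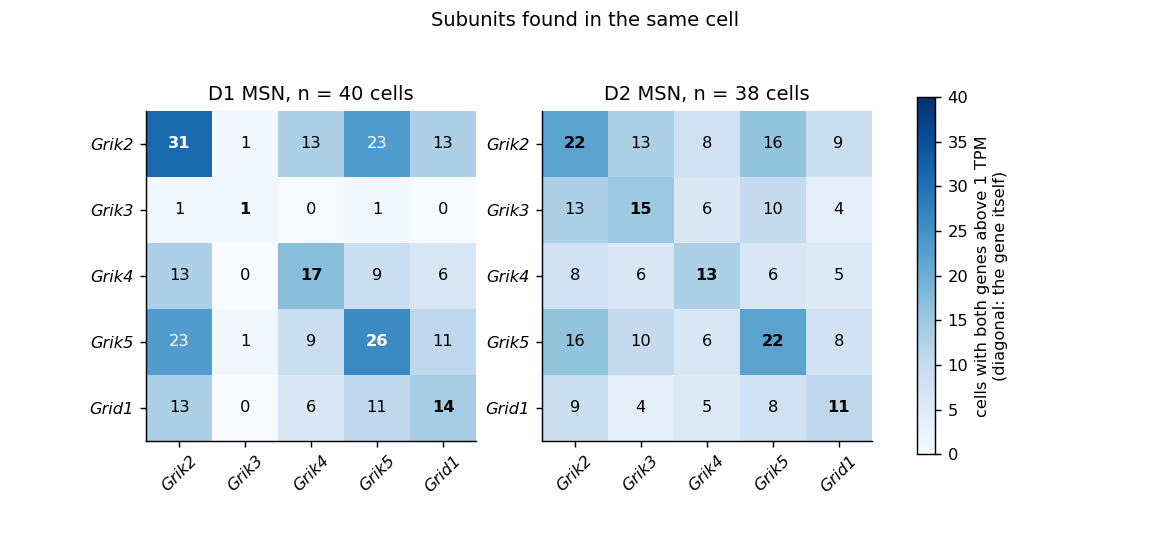
Number of cells in which both members of a pair were above 1 TPM, for 40 D1 MSN and 38 D2 MSN; the diagonal gives the cells with the gene itself, and darker blue means more cells. *Grik2* with *Grik5* is the largest pair in both subtypes (23 and 16 cells), and *Grik2* with *Grik3* is found in 13 D2 MSN and 1 D1 MSN.

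For each member above 1 TPM in at least 10 MSN, the 3 genes with the most similar pattern were taken by Pearson's r of log2(TPM + 1) over the 78 MSN, as a description. The cells of a plate share their processing, and low levels are shared by many sparse genes. For *Grik2* these were *Gm42857* (r = 0.56), *Rbms1* (0.55) and *Ddx3x* (0.54), and for *Grik3* *Gm19918* (0.56), *Gm43670* (0.52) and *Nnat* (0.51). *Grik4* was most like *Efr3a* (0.51), *Gm42535* (0.48) and *Gm11225* (0.47), but with values centred within plate and subtype none of these 3 remained and *4930417O13Rik* (0.50), *Sec14l4* (0.49) and *Dvl2* (0.48) came first. *Grik5* was most like *Nell2* (0.54), the inhibitory synapse adhesion gene *Nlgn2* (0.51) and *Tesc* (0.49). For *Grid1* they were *Eif4e3* (0.59), *Plxnd1* (0.58) and *Tnrc6c* (0.57). Each set of 3 was the highest of 12062 ranked genes, so a lower r between members follows from that choice. Among the members themselves r was 0.31 for *Grik2* and *Grik5* and 0.24 for *Grik2* and *Grid1*. It was 0.11 for *Grik2* and *Grik3* and -0.22 for *Grik4* and *Grik5*.

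Genes known to act with these receptors were taken as a list of 22, of which 21 were listed and 17 could be placed in the comparison over all genes. Below a log2 fold of -1, higher in D2 MSN, were 4 of the 17, against 12.9% of all genes, and 2 of these, *Grip1* and *Klhl17*, were so on both large plates, against 4.19%. None of the 17 was above 1, against 18.4%. The median log2 fold of the list was 0.11, beside 0.08 for all genes.

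The auxiliary subunits of kainate receptors, which slow channel closing and bind the receptor at synapses, were both found in many cells. *Neto1* ranged from 0 to 247 TPM in D1 MSN (median 20.8) and from 0 to 307 TPM in D2 MSN (median 37.7), with means of 32.1 and 66.2 TPM and 27 cells above 1 TPM in each subtype. Its log2 fold was -1.02, with -0.76 and -1.25 on the 2 plates. *Neto2* ranged from 0 to 206 TPM in D1 (median 35.3) and 0 to 205 TPM in D2 MSN (median 1.93), was above 1 TPM in 30 D1 and 21 D2 MSN, and had a log2 fold of 0.53, with -0.05 and 0.87 on the plates. *Neto1* was thus on the side of *Grik3* on both plates, whereas *Neto2* was close to 0 on one of them.

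*Grip1*, a PDZ scaffold of glutamate receptors, averaged 2.04 TPM in D1 and 13.6 TPM in D2 MSN, and its log2 fold of -2.26 rested on 5 and 8 cells above 1 TPM. *Klhl17*, the actinfilin gene whose protein targets GluK2 for degradation, averaged 1.30 and 6.22 TPM with 3 and 7 such cells, a log2 fold of -1.65. The cerebellin gene *Cbln4* had a log2 fold of -2.74 from a single D2 MSN with 220 TPM. *Cbln1*, a partner of delta receptors, was above 1 TPM in 1 D1 MSN and no D2 MSN, and *Cbln2* was listed at 0 in all MSN.

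Over all cells, the other partner genes stayed within a log2 fold of 1. They included the scaffolds *Dlg1* (-0.57), *Dlg3* (0.56), *Dlg4* (-0.25), *Cask* (0.76) and *Pick1* (0.94, but 1.38 and -0.37 on the 2 plates), and the protein turnover and modification genes *Cul3* (0.43), *Klhl24* (0.70) and *Senp1* (-0.14). The RNA editing enzymes *Adar* (0.11) and *Adarb1* (0.82), which recode sites in kainate receptor transcripts, were also among them, and editing was not measured here. Within FACS086_4, *Adarb1* (1.49), *Cask* (1.09), *Klhl24* (1.06) and *Dlg3* (1.02) were beyond 1. *Senp1* had folds of -1.12 on FACS051_5 and 0.76 on FACS086_4, and *Dlg4* of 0.49 and -0.85.

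The 2 cholinergic interneurons, in wells A08 and B02 of FACS051_5, held more genes than any MSN, 10912 and 10251 above 1 TPM, and their subunit values lay within the range of MSN except for *Grik1*. *Grik1* was at 29.7 and 0 TPM, *Grik2* at 2.31 and 0.223 TPM and *Grik3* at 4.0 and 4.24 TPM. *Grik4* was at 1.39 and 0.556 TPM, *Grik5* at 2.75 and 30.2 TPM, and *Grid1* was listed at 0 in both. Their *Grik2* levels were below the medians of D1 and D2 MSN.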

How the data were processed

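The authors deposited 1 TPM value for each gene in each cell, without read counts. The study gives a median depth over cells, but the depth of each single cell is unknown. Reads of 1 cell each (SMARTer cDNA) were, per the study's methods and the submitters' processing notes, aligned with STAR 2.5.0 to mm10/GRCm38 and counted with featureCounts 1.5.1; how TPM were made is not given in the sources used here. The study describes a 3′ bias of such libraries, which can lower genes whose annotated 3′ end is incomplete.

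All 80 cells were used, whereas the study describes slightly fewer as usable and does not name them. Members and lists were chosen with earlier results of these data known, as was the *Chat* limit of 100 TPM. Named genes were the members, the partner and receptor lists, and the 3 genes most like each member; some listed genes are not reported here. The log2 fold was log2 of (mean TPM + 1) in D1 over (mean TPM + 1) in D2 MSN, without a test, since the labels name no animal. The 1 TPM added understates folds of low genes. Genes compared had a mean of at least 1 TPM. A share of 0 was limited by 3 counts. Alternatives numbered 23, and 3 more were chosen after seeing the data. Scripts ran under Python 3.11.15 (with pandas 2.3.3, numpy 2.4.6 and scipy 1.17.1), and figures under matplotlib 3.10.9.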

Additional observations from a re-analysis of the deposited data

Results flagged for a closer look

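The cholinergic interneuron from well A08 (plate FACS051_5) held 29.7 TPM of *Grik1*, and the comparison of D1 and D2 MSN did not use this cell. The gene was listed at 0 in the other cholinergic interneuron and in all 78 MSN, so this value rests on 1 cell.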

How the results depend on the processing

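The log2 fold of each member was taken under 14 alternatives, 70 values in all. Of these, 57 moved by less than 1 SD between the folds of both large plates and 13 moved by more. This SD was 0.065 for *Grik2* and 1.37 for *Grik5*, so these counts do not compare stability between members. The *Grik3* fold, the one beyond 1 in size, changed sign in 0. The *Grik3* fold was lower than 0 in 14 of 14, with -4.52 at an added 0.1 TPM, -0.77 at an added 10 TPM and -1.46 as a difference of mean log2(TPM + 1). Members beyond 1 in size then numbered 0 at an added 10 TPM, 2 for the difference of mean log2 values (*Grik3* and *Grik2*), 2 without plate FACS086_4 (*Grik3* and *Grik5*), and 2 without MSN above 10 TPM of oligodendrocyte markers (*Grik3* and *Grik5*). *Grik2* ranged from 0.57 to 1.28, *Grik4* from 0.08 to 0.77 and *Grid1* from 0.20 to 0.92, each above 0 in 14 of 14. *Grik5* was -1.34 without MSN above 10 TPM of oligodendrocyte markers, -1.07 without plate FACS086_4 and 0.67 without plate FACS086_9, and kept its sign in 10 of 14. Of 120 shares of cells, 105 moved within their interval and 15 beyond it. *Grik3* was found in 62.5% of D1 and 71.1% of D2 MSN above 0 TPM, in 0 D1 MSN above 10 TPM, and in 0 D1 MSN without plate FACS051_5 or without MSN above 10 TPM of oligodendrocyte markers. Leaving out those MSN, 2 cells with markers of the other subtype, or the cell with the highest kainate sum was chosen after seeing the data. Leaving out cells with fewer than 2000 genes left 39 D1 and 36 D2 MSN and a *Grik3* fold of -2.85. Cells with 3 or more members were 82.5% of D1 and 78.9% of D2 MSN above 0 TPM, and 15% and 10.5% above 10 TPM. No paired analysis was possible because no test was made and the labels pair no cells. Plates could not be linked to animals, and without read counts a value of 0 has no limit of detection.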

Other observations

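The 2 cholinergic interneurons differed from MSN in other glutamate receptor subunits as well. The AMPA receptor subunit gene *Gria4* was at 142 and 105 TPM in them, against a mean of 13.0 TPM in D1 and 6.84 TPM in D2 MSN, where its highest values were 73.9 and 52.0 TPM. The NMDA receptor subunit gene *Grin3a* was at 30.7 and 47.1 TPM in them and above 1 TPM in 0 of 78 MSN. The auxiliary subunit genes *Neto1* and *Neto2* were below 1 TPM in both, against 54 and 51 of 78 MSN above 1 TPM. These are values of 2 cells, without a test.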
